A study of Homo sapiens with 27 samples.

Results

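The aryl hydrocarbon receptor genes examined here are AHR, AHRR, CYP1A1, CYP1B1, CYP2S1, TIPARP and NQO1, the 7 of 26485 counted genes that bear these symbols, and their RNA was followed across 4 lines of T47D cells. CYP2S1 was chosen by its values, because it was among the genes lower in all 3 mutant lines, so its difference from control is given as a description without a test. The other 6 genes were chosen as genes of the same pathway, with earlier results of these data known. All 7 passed the filter on low counts that left 14789 genes for testing.

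T47D is an established cell line of luminal breast cancer, and GATA3 is a zinc finger transcription factor of the luminal lineage. RNA was sequenced from cells carrying the empty vector (control) or a truncated GATA3 named Splice del, C321fs or A333fs, with 3 libraries per line. Splice del is a deletion at a splice acceptor that replaces the whole second zinc finger by a frameshift, and C321fs and A333fs are frameshifts within that finger. All lines keep their own wild-type GATA3, the mutants were added by lentivirus with a Ty1 tag, and control cells were infected with the same vector without an insert. Cells were selected with puromycin and used at fewer than 10 passages. Each line is 1 stable pool, so whatever else sets a pool apart enters every comparison with it. The study calls the libraries biological replicates but does not say whether they came from separate cultures. The p-values therefore measure only the spread between these libraries. The promoter that drives the mutants is not given in the sources used here, no AHR ligand is named, and the sample descriptions and the study's methods name different growth media. GATA3 counts include fragments of the introduced mutants and therefore do not check the labels.

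AHR is a transcription factor that waits in the cytosol in a complex with HSP90 and other chaperones. On binding an aromatic ligand, such as dioxin or a tryptophan metabolite, it moves to the nucleus, pairs with ARNT and binds a short DNA element whose core reads GCGTG. Its targets include cytochromes P450 that oxidise aromatic hydrocarbons and estrogens, the quinone reductase NQO1, and the feedback inhibitors AHRR and TIPARP, and in breast cancer cells the pathway is known for its crosstalk with the estrogen receptor.

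Promoter windows of 250 bases before the annotated start were read from RefSeq (build GRCh38.p14) and matched 6 of the 7 genes. CYP1B1 had no entry. The window of CYP2S1 is shown because this gene carries the change common to the 3 mutant lines, that of CYP1A1 as the classical AHR target and that of AHRR as the feedback target with the extended element. Capitals mark a GATA factor motif in CYP2S1 and the core GCGTG in the others.
CYP2S1 (chr19:41192969-41193218, plus strand): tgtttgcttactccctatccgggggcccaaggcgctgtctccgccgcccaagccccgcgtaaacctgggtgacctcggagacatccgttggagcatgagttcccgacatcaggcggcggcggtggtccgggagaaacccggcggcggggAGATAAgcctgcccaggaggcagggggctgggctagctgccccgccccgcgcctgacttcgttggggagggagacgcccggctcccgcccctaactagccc
CYP1A1 (chr15:74725529-74725778, minus strand): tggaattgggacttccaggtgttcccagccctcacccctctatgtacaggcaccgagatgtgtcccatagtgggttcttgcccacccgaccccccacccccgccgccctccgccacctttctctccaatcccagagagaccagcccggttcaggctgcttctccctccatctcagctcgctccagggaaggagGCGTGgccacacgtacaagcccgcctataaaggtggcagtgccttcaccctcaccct
AHRR (chr5:321464-321713, plus strand): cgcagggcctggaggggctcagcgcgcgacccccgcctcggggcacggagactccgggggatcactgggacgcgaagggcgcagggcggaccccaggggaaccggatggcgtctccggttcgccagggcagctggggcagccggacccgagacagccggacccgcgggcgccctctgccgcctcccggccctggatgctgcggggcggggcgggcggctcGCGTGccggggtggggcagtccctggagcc

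In the windows of AHR, CYP2S1 and NQO1 the letters GCGTG were found on neither strand. The window of CYP1A1 held GCGTG once, 57 to 53 bases before the start. In the first window of AHRR it stood 30 to 26 bases before the start, within the longer element TNGCGTG, and a second annotated start of AHRR had 2 matches. The first of 3 windows of TIPARP held 2 matches on the other strand. Of all 35116 promoter windows of this length, 32.2% held GCGTG on either strand and 4.52% held TNGCGTG, which contains it. A GATA motif (AGATAA, or the same with T as the first or G as the last letter, either strand) was found in CYP2S1, 101 to 96 bases before the start, and in no other window of these genes, against 22.3% of all windows. The core of the NRF2 response element was in none of them, against 10.9% of all. A match is a run of letters and not a measured binding site. Sequence farther from the start was not searched, so the lack of a match says nothing about elements there.

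Libraries held 27872208 to 36788024 counted fragments. Counts were scaled with TMM factors to CPM, a gene's counts relative to the scaled total of its library, and differences were tested with edgeR's quasi-likelihood test in 1 model of all 12 libraries. A gene is called here when its Benjamini-Hochberg adjusted p is below 0.01 and it differs by more than 1.5-fold. Genes with GC-rich exons tended to be lower in the mutant lines: Spearman's rho of log2 fold change with GC content, taken across tested genes that do not count as independent replicates, was -0.51 (Splice del), -0.55 (C321fs) and -0.67 (A333fs). The slope of log2 CPM over 10 percentage points of GC content was 0.11 to 0.19 in the control libraries and -0.22 to 0.01 in the 9 mutant libraries, so that this trend and the mutants cannot be told apart. Values after removal of this trend and of the trend over exon length, in each library (the GC and length correction), are therefore given beside the results. The members span this scale: GC content was 40.7% in AHR, 44.5% in CYP1B1, TIPARP and NQO1, 53.1% in CYP1A1, 57.4% in AHRR and 60.3% in CYP2S1, against a median of 49.6% over tested genes. Scaling also mattered: the median log2 fold change over all tested genes was 0.03, 0.02 and 0.01 (Splice del, C321fs, A333fs) with TMM, 0.12, 0.11 and 0.12 with upper-quartile factors, and 0.22, 0.19 and 0.16 with library totals alone. C321fs replicate 1 stood apart from its replicates, with a chi-square per gene of 15.3 and 26.8 to them against 5.46 between those, and a GC slope of 0.014 against -0.11 and -0.12. Without this library the log2 fold changes in C321fs were -0.20 for AHR, -0.72 for AHRR (still called, adjusted p = 0.00900 from edgeR), -0.22 for CYP1A1, 0.22 for CYP1B1 (adjusted p = 0.00316, 0.0231 with it), -1.08 for CYP2S1, 0.03 for TIPARP and -0.09 for NQO1. All 8 luminal markers were present in every line, with PGR at 937 to 1107 CPM and ESR1 at 219 to 259 CPM as line means. Of 10 markers of other cell types, KRT5, PDGFRB, PTPRC, CD3E, PECAM1 and CDH5 had at most 3 counts in any library.

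Per kilobase of exon, the members kept a wide range of levels in every line. In control, NQO1 stood at 158 ± 4.56 CPM per kilobase (SD, n = 3), CYP1B1 at 32.8 ± 1.70, CYP2S1 at 11.3 ± 0.766, AHR at 9.04 ± 0.631, TIPARP at 6.46 ± 0.569, AHRR at 0.414 ± 0.0477 and CYP1A1 at 0.201 ± 0.0449. Each gene in this order stood further from the next than the sum of their SDs. The inducible enzyme CYP1A1 was the lowest of the set and CYP1B1 the highest of its P450 genes. In the mutant lines CYP2S1 fell behind both AHR and TIPARP in this order: at 4.97 ± 0.360 (Splice del), 5.58 ± 0.422 (C321fs) and 6.005 ± 0.434 (A333fs) CPM per kilobase, it stood below TIPARP at 6.76 ± 0.296, 6.36 ± 0.517 and 6.93 ± 0.120. In C321fs the CYP2S1 and TIPARP means lay closer together than the sum of their SDs.

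**Figure D1:**
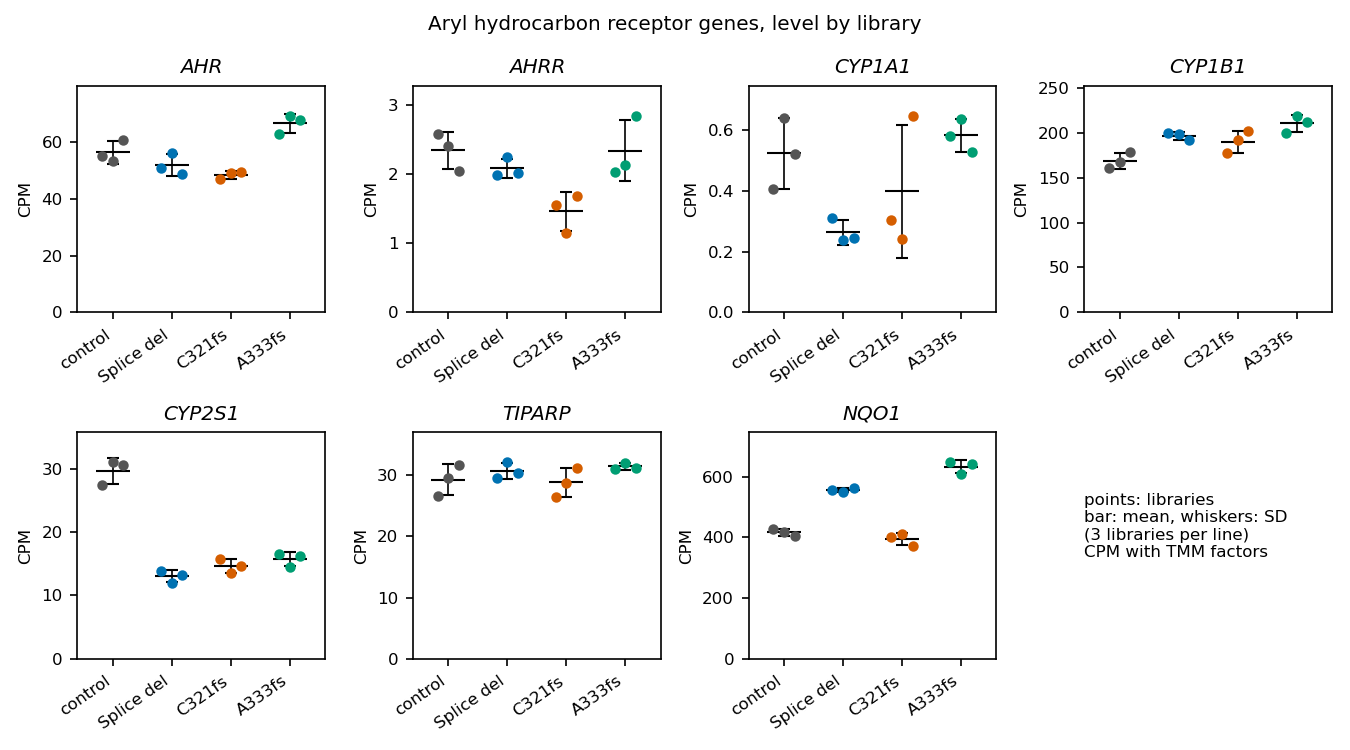
CPM (with TMM factors, linear axis from 0) of the 7 genes in the 12 libraries, with points for libraries and bars for the mean and SD of 3 libraries. CYP2S1 lies between 12.0 and 16.6 CPM in the 9 mutant libraries and between 27.4 and 31.1 CPM in control, and NQO1 is highest in A333fs and Splice del.

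The call was made for no member other than CYP2S1 in Splice del against control, for AHRR in C321fs and for NQO1 in A333fs. Of the 6 members tested, 0 were called in Splice del with edgeR's quasi-likelihood test, where 3 had an unadjusted p below 0.05 and DESeq2 called 0, against 10.7% of all tested genes. In C321fs 1 of 6 was called, against 6.88% of all genes, and in A333fs 1 of 6, against 12.3%. With no minimum fold change, 2, 1 and 3 of the 6 passed an adjusted p of 0.01, against 41.1%, 36.8% and 47.4% of all genes. An F-test on the 3 mutant coefficients found a difference among the 4 lines for NQO1 (adjusted p = 6.1e-08), AHR (adjusted p = 1.2e-04) and CYP1B1 (adjusted p = 0.00152), and not for AHRR (adjusted p = 0.0110), CYP1A1 (adjusted p = 0.0444) or TIPARP (adjusted p = 0.367), by the edgeR quasi-likelihood test with BH adjustment. That is 3 of 6 members, against 56.2% of all tested genes.

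**Figure D2:**
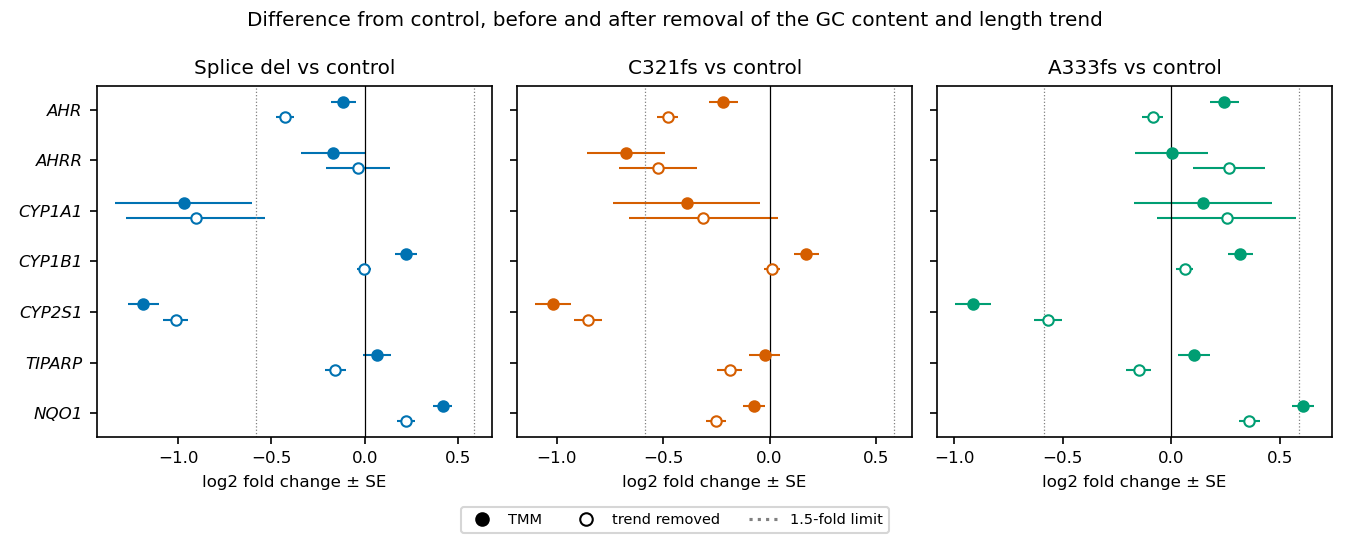
Log2 fold change of the 7 genes against control in each mutant line, with bars of 1 SE, as fitted with TMM factors (filled points) and after the GC and length correction (open points). Dotted lines mark the limit of 1.5-fold. CYP2S1 stays on the lower side in all 3 lines, while removal of the trend moves AHR in A333fs from 0.24 to -0.09 and NQO1 in A333fs from 0.61 to 0.36.

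The receptor itself, AHR (chromosome 7 from 17298652 to 17346151, hg38), was lowest in C321fs and highest in A333fs. AHR stood at 55.2, 53.3 and 60.9 CPM in the control libraries and at 51.1, 56.4 and 48.8 CPM in Splice del. It stood at 46.9, 49.0 and 49.6 CPM in C321fs and at 63.1, 69.5 and 67.9 CPM in A333fs. Every A333fs library lay above every library of the other lines, every C321fs library lay below control, and Splice del overlapped control. Against control the log2 fold change of AHR was 0.24 in A333fs (standard error 0.07, adjusted p = 0.00562 by the edgeR quasi-likelihood test, Benjamini-Hochberg), -0.22 in C321fs (0.07, adjusted p = 0.0142) and -0.11 in Splice del (0.07, adjusted p = 0.167), each within the limit of 1.5-fold. AHR has a low GC content, below that of all but 15.8% of tested genes. With the trend removed its log2 fold changes were -0.09 in A333fs (adjusted p = 0.155 from edgeR), -0.48 in C321fs (adjusted p = 4.4e-07) and -0.43 in Splice del (adjusted p = 6.6e-07). Its direction against control in A333fs and its difference from control in Splice del therefore depend on that trend. Scaling by library totals alone turned the Splice del value to 0.07.

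AHRR encodes the AHR repressor, which competes with AHR for ARNT, and it was the member called in C321fs. Its counts were low, at 33 to 97 fragments per library. AHRR stood at 2.58, 2.41 and 2.05 CPM in control and at 1.55, 1.14 and 1.68 CPM in C321fs, without overlap. The Splice del libraries had 1.99, 2.25 and 2.02 CPM and the A333fs libraries 2.03, 2.14 and 2.85 CPM, both overlapping control. The log2 fold change of AHRR in C321fs was -0.68 (standard error 0.18, adjusted p = 0.00598 by the edgeR quasi-likelihood test, Benjamini-Hochberg), and it was -0.17 (0.17, adjusted p = 0.412) in Splice del and 0.0015 (0.17, adjusted p = 0.995) in A333fs. The call in C321fs was lost on leaving out any of control replicate 1, control replicate 2 or C321fs replicate 2. It was also lost with upper-quartile factors (-0.59, adjusted p = 0.0130 from edgeR), with library totals alone (-0.51, adjusted p = 0.0278), in the test against 1.5-fold, and after the GC and length correction (-0.52, adjusted p = 0.0271). The gene model used for counting starts at 304176 on chromosome 5, where 45 exon bases are shared with PDCD6 on the same strand, and runs to 438290.

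CYP1A1, the textbook reporter of AHR activity, was close to the limit of detection. Its counts were 12, 20 and 15 fragments in control and 12, 8 and 7 in Splice del. The C321fs libraries held 10, 7 and 20 fragments and the A333fs libraries 18, 20 and 18. As CPM this was 0.407, 0.641 and 0.521 in control and 0.310, 0.236 and 0.244 in Splice del, which lay below control without overlap. The C321fs libraries ran from 0.243 to 0.648 CPM and covered the whole control range, and the A333fs libraries ran from 0.528 to 0.638 CPM. The log2 fold change of CYP1A1 (chromosome 15 from 74719542 to 74725536) was -0.97 in Splice del, with a 95% interval from -1.75 to -0.19 (adjusted p = 0.0354 by the edgeR quasi-likelihood test, Benjamini-Hochberg). It was -0.39 in C321fs, with an interval from -1.12 to 0.34, and 0.15 in A333fs, with an interval from -0.53 to 0.82. None of these passed the threshold, and at this depth the interval in A333fs still reached past a rise of 1.5-fold.

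CYP1B1, the P450 that turns estradiol into catechol estrogens, was the most abundant of the 3 P450 members and higher in every mutant mean. CYP1B1 stood at 161, 168 and 178 CPM in control and at 199, 198 and 192 CPM in Splice del. The C321fs libraries had 177, 192 and 202 CPM and the A333fs libraries 200, 219 and 212 CPM. Splice del and A333fs lay above control without overlap, and C321fs replicate 1 fell within the control range. The log2 fold change of CYP1B1 (chromosome 2 from 38067603 to 38076181) was 0.32 in A333fs (standard error 0.06, adjusted p = 2.6e-04 by the edgeR quasi-likelihood test, Benjamini-Hochberg), 0.22 in Splice del (0.06, adjusted p = 0.00522) and 0.17 in C321fs (0.06, adjusted p = 0.0231), all under 1.5-fold. After the GC and length correction these became 0.06, -0.0029 and 0.01, with adjusted p between 0.221 and 0.959 from edgeR, so the rise of CYP1B1 is not kept under that correction.

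CYP2S1 (chromosome 19 from 41193207 to 41207539) encodes a P450 of epithelia outside the liver that AHR ligands induce in several cell types. It stood at 27.4, 31.1 and 30.6 CPM in the control libraries. In Splice del it stood at 13.9, 12.0 and 13.2 CPM, in C321fs at 15.7, 13.5 and 14.6 CPM, and in A333fs at 16.6, 14.5 and 16.3 CPM. No mutant library reached the lowest control library, and 380 to 969 fragments stood behind each value. The control mean was 29.7 ± 2.01 CPM (SD, n = 3), and the means of Splice del, C321fs and A333fs were 13.03 ± 0.946, 14.6 ± 1.11 and 15.8 ± 1.14 CPM, which is 0.439, 0.494 and 0.531 of control in the fit. As a description of the genes this one was selected from, its log2 fold changes were -1.19, -1.02 and -0.91 in the same order. After the GC and length correction they were -1.01, -0.85 and -0.57, the last inside the limit of 1.5-fold. CYP2S1 has a higher GC content than 83.6% of tested genes.

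The keratins KRT8, KRT18 and KRT19 were lower in the mutant lines, each called in 2 of the 3. They made up the 3 (Splice del), 2 (C321fs) and 1 (A333fs) of 8 luminal markers called lower, against 4.53%, 2.26% and 6.81% of all tested genes. The other 5 luminal markers were not called and did not all move that way. EPCAM rose from 208 CPM in control to 278, 268 and 268 CPM (Splice del, C321fs, A333fs). With no minimum fold change 2, 1 and 2 of the 8 were higher and 3, 4 and 4 lower at an adjusted p of 0.01 from edgeR. In either direction 41.1%, 36.8% and 47.4% of all genes passed. The GC and length correction left 2, 1 and 0 called lower. The summed level of the 8, most of it keratin, was 16973 to 20104 CPM in the control libraries and 11095 to 13975 CPM in the mutant libraries. In bulk RNA, fewer cells of a type and less RNA per cell cannot be told apart. The 10 markers of other cell types summed to 53.4 to 65.3 CPM in control libraries, and to 45.3 to 51.2 (Splice del), 41.5 to 50.5 (C321fs) and 30.6 to 34.4 CPM (A333fs), with PTPRC at 0 in every library, and most of this sum was the collagen gene COL1A1, at 53.4 CPM in control and 30.1 CPM in A333fs. COL3A1 was called lower in all 3 lines, with log2 fold changes of -1.09, -1.03 and -1.65 from 5.13 CPM in control. The basal genes stayed near the floor, with 0 to 21 fragments of KRT14 and 3 to 24 of TP63 per library, although KRT14 was called higher in A333fs, where it had 16 to 21 fragments against 0 or 1 in control, and TP63 in C321fs. Both genes passed the filter on low counts only through mutant lines, which favours a call of higher, so these 2 calls add little. The part of these markers in the CYP2S1 values was not tested.

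Most tested genes around CYP2S1 had lower means in the mutant lines, 9 (Splice del), 7 (C321fs) and 8 (A333fs) of 10, with log2 fold changes up to 0.16, 0.51 and 0.40. Over all tested genes the median log2 fold change was 0.03, 0.02 and 0.01. The GC content of the 10 ran from 50.1% (CYP2B7P) to 64.7% (TGFB1), above the median of 49.6% over tested genes, and GC-rich genes tended to be lower throughout. The 16 genes within 250 kb include P450 genes of the same cluster, of which CYP2B6, CYP2A13 and CYP2F1 had at most 9 fragments in any library and the pseudogene CYP2B7P at most 18. The 10 neighbours tested included 5 (Splice del), 1 (C321fs) and 3 (A333fs) called lower, against 4.53%, 2.26% and 6.81% of all tested genes called lower. None of the 10 was called higher with edgeR's quasi-likelihood test, where 0 were higher at an unadjusted p below 0.05 and DESeq2 called 0 higher. CCDC97 was called in all 3 lines, with log2 fold changes of -0.64, -0.66 and -0.66 from 68.2 CPM in control. The exosome subunit gene EXOSC5 (-0.90 in Splice del and -0.82 in A333fs) and TGFB1, which encodes a growth factor (-0.63 and -1.11), were called in both of these lines, and BCKDHA (-0.65) and ATP5SL (-0.59) in Splice del. The nearest tested neighbour, AXL, a receptor tyrosine kinase gene 11.7 kb away, was at most 0.801 CPM as a line mean and was not called. After the GC and length correction 1 neighbour was called lower in Splice del, 0 in C321fs (where edgeR's uncorrected fit had 5 lower at an unadjusted p below 0.05 and DESeq2 called 1) and 1 in A333fs. The median log2 fold change of the neighbours was -0.52, -0.29 and -0.50 before and -0.41, -0.11 and -0.27 after that correction, each above the CYP2S1 value of the same line. TGFB1 in A333fs lay below CYP2S1 (-1.11 against -0.91, and -0.66 against -0.57 after the correction).

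Among the other P450 genes and their electron donors, called genes were higher than control. Of 42 in the list, 19 passed the filter, and 7 (Splice del), 4 (C321fs) and 7 (A333fs) were called higher, against 6.21%, 4.63% and 5.46% of all tested genes called higher. None was called lower in any line with edgeR's quasi-likelihood test, where 2, 5 and 5 were lower at an unadjusted p below 0.05 and DESeq2 called 0 lower. With no minimum fold change 12, 6 and 11 were higher and 2, 1 and 4 lower at an adjusted p of 0.01 from edgeR. Of all tested genes 41.1%, 36.8% and 47.4% passed that rule, counting both directions. The median log2 fold change of the list was 0.34, 0.15 and 0.33, against 0.03, 0.02 and 0.01 over all tested genes. With the GC and length trend removed it was 0.30, 0.08 and 0.09, against -0.06, -0.05 and -0.05. The GC and length correction left 7, 3 and 7 called higher, and the share of all tested genes called higher under it is not given here. Of all genes then called, 66.7%, 71.3% and 71.1% were higher. The corrected calls include CYP4F22 and CYP4B1 in Splice del and CYP4F22 in C321fs. CYP4F22 and CYP4B1, at 0.212 and 0.0776 CPM in control, passed the filter on low counts only through mutant lines where they were higher. For such genes the filter favours a call of higher, so their calls add little to the count.

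CYP4F22, which encodes an omega-hydroxylase of skin lipids, showed the widest range of the list. It had 8, 6 and 5 fragments in the control libraries (0.271, 0.192 and 0.174 CPM), 8.36, 7.33 and 9.86 CPM in Splice del, 0.974, 1.46 and 1.00 CPM in C321fs and 8.52, 8.14 and 9.01 CPM in A333fs. Its log2 fold changes were 5.29 (standard error 0.22), 2.40 (0.31) and 5.31 (0.22). They are given as a description, since CYP4F22 passed the filter on low counts only through the mutant lines. CYP4X1, a P450 with few known substrates, rose from 16.1 CPM in control to 32.8 CPM in Splice del and 27.4 CPM in C321fs, and stood at 20.1 CPM in A333fs. CYP27B1, the enzyme that activates vitamin D, was called in C321fs alone among the 3 lines, with a log2 fold change of 0.66, against 0.18 in Splice del and -0.30 in A333fs. CYB5A, the cytochrome that passes electrons to P450s, rose from 75.5 to 141 CPM in A333fs and stood at 93.3 CPM in Splice del and 67.7 CPM in C321fs. The bile acid enzyme gene CYP39A1 was called higher in all 3 lines, and the retinoic acid hydroxylase genes CYP26A1 and CYP26B1 in Splice del and A333fs, and these 3 were named after their values were seen. POR, the reductase that serves all microsomal P450s, stood at 166 CPM in control and at 134, 130 and 122 CPM in the mutant lines, under 1.5-fold (log2 fold changes -0.31, -0.35 and -0.44, largest adjusted p = 0.00224 from edgeR). CYB5R3, the reductase of cytochrome b5, stood at 160 CPM and at 128, 137 and 112.6 CPM, and was named after its values were seen. After the GC and length correction POR had -0.13 in Splice del (adjusted p = 0.0314 from edgeR). CYB5R3 then had -0.18 in Splice del (adjusted p = 0.00110) and -0.08 in C321fs (adjusted p = 0.145).

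**Figure D3:**
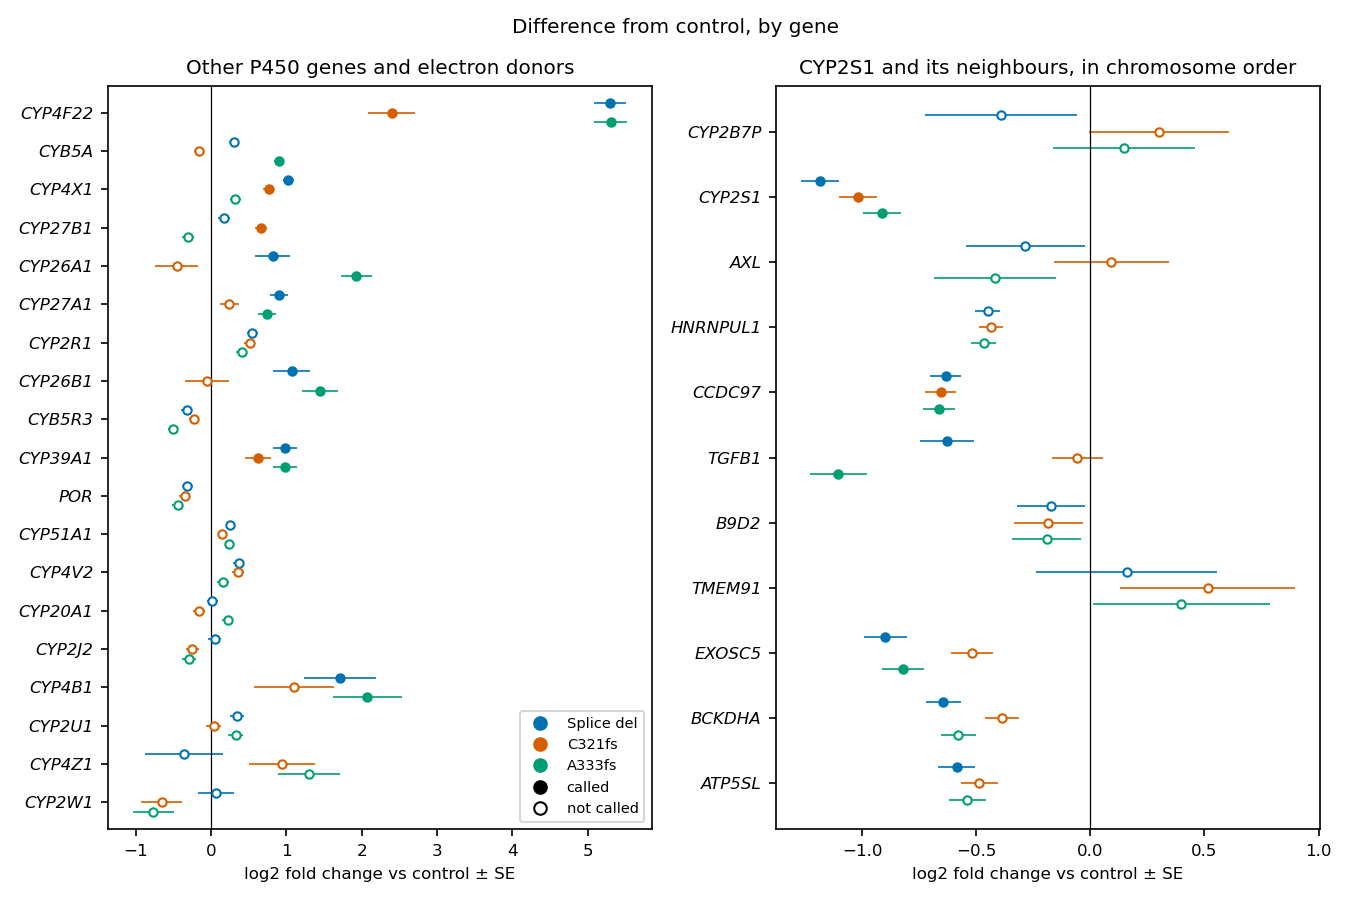
Log2 fold change against control with bars of 1 SE for the 19 tested genes of other P450 enzymes and their electron donors (left, ordered by the F-test) and for CYP2S1 and its 10 tested neighbours in chromosome order (right). Colours mark the mutant lines and filled points the called genes, all of which lie above 0 on the left and below 0 on the right.

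TIPARP, a mono-ADP-ribosyltransferase that AHR induces and that in turn limits AHR, differed little among the lines. TIPARP (chromosome 3 from 156674416 to 156706768) stood at 26.6, 29.5 and 31.7 CPM in control, at 29.5, 32.1 and 30.3 CPM in Splice del, at 26.5, 28.7 and 31.2 CPM in C321fs and at 31.0, 32.0 and 31.1 CPM in A333fs. The mutant libraries overlapped control in each line. The 95% intervals of its log2 fold change were -0.09 to 0.22 (Splice del), -0.18 to 0.14 (C321fs) and -0.06 to 0.26 (A333fs), so each lies within 1.5-fold. After the GC and length correction the values were -0.16, -0.19 and -0.15, with adjusted p from 0.0122 to 0.0386 by the edgeR quasi-likelihood test, Benjamini-Hochberg. TIPARP shares 847 exon bases with TIPARP-AS1 on the other strand, and the counting ignored strand, so reads of the pair cannot be told apart.

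Of 16 other genes of the PARP family, 14 were tested, and 2 were called higher in Splice del and 1 each in C321fs and A333fs, against 6.21%, 4.63% and 5.46% of all tested genes. None was called lower with edgeR's quasi-likelihood test, where 2, 1 and 1 were lower at an unadjusted p below 0.05 and DESeq2 called 0 lower. PARP14, an interferon-responsive family member, rose in all 3 lines, from 21.0 CPM in control to 44.0, 39.5 and 39.0 CPM, with log2 fold changes of 1.06, 0.91 and 0.89 (largest adjusted p = 3.0e-05 by the edgeR quasi-likelihood test, Benjamini-Hochberg). Its partner PARP9 was called in Splice del with 0.68 and had 0.51 in C321fs and 0.44 in A333fs. PARP14 had 0.83, 0.76 and 0.63 after the GC and length correction and stayed called in all 3 lines.

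NQO1, a cytosolic quinone reductase that both AHR and NRF2 activate, was the most abundant member and rose in Splice del and A333fs. NQO1 (chromosome 16 from 69709401 to 69726668) stood at 426, 419 and 403 CPM in control and at 555, 550 and 561 CPM in Splice del. It stood at 402, 410 and 373 CPM in C321fs and at 648, 608 and 642 CPM in A333fs. The Splice del and A333fs libraries overlapped neither each other nor control, and C321fs overlapped control. The log2 fold change of NQO1 was 0.61 in A333fs (standard error 0.05, adjusted p = 2.1e-07 by the edgeR quasi-likelihood test, Benjamini-Hochberg), 0.42 in Splice del (0.05, adjusted p = 8.4e-06) and -0.07 in C321fs (0.05, adjusted p = 0.240). A333fs passed the limit of 1.5-fold by a small margin: without control replicate 3 the value was 0.58 and the call was lost, and after the GC and length correction it was 0.36 (adjusted p = 8.6e-06 from edgeR). Splice del had 0.22 (adjusted p = 8.2e-04 from edgeR) and C321fs -0.25 (adjusted p = 3.3e-04) under that correction. The C321fs value turned to 0.01 with upper-quartile scaling and to 0.09 with library totals alone.

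Regulators and targets of NRF2, which include NFE2L2 (NRF2 itself), KEAP1, BACH1, MAFG and MAFK, moved in both directions. Of 33 in the list, 28 were tested, and 1 was called higher and 1 lower in Splice del (against 6.21% and 4.53% of all tested genes) and 1 higher and 2 lower in A333fs (against 5.46% and 6.81%). With no minimum fold change 4, 6 and 8 were higher and 12, 10 and 11 lower at an adjusted p of 0.01 from edgeR. Of all tested genes 41.1%, 36.8% and 47.4% passed this rule in either direction. GCLM, a subunit of the enzyme that starts glutathione synthesis, stood at 11.3 CPM in control and between 13.5 and 15.4 CPM in the mutant lines, and was named after its values were seen. After the GC and length correction its log2 fold change was -0.10 in Splice del (adjusted p = 0.340 from edgeR) and -0.02 in C321fs (adjusted p = 0.862), so that rise was not kept there. In C321fs 0 were called with edgeR's quasi-likelihood test, where 8 were higher and 12 lower at an unadjusted p below 0.05 and DESeq2 called 0. The median log2 fold change of the list was -0.15, -0.09 and -0.14, against 0.03, 0.02 and 0.01 over all tested genes. After the GC and length correction it was -0.14, -0.04 and -0.03, against -0.06, -0.05 and -0.05. The lower median is thus not kept in C321fs and A333fs under that correction. OSGIN1, an oxidative stress response gene, fell from 248 to 126 CPM in A333fs (-0.98) and stood at 174 CPM in Splice del and 182 CPM in C321fs. AKR1C3, an aldo-keto reductase of steroid and prostaglandin metabolism, was called higher in Splice del and A333fs on 2 to 5 fragments in the control libraries and 8 to 23 in those lines. It passed the filter on low counts only through mutant lines, which favours a call of higher, so its calls add little, with or without the GC and length correction. HMOX1, the heme oxygenase gene that NRF2 induces, and NQO2, the paralog of NQO1, had the largest F-test p of the list and were named for that after their values were seen. OSGIN1 was not called in any line after the GC and length correction, which left 0 genes of the list called lower and 2 called higher in A333fs, AKR1C3 and the carbonyl reductase gene CBR3 (log2 fold changes 2.13 and 0.60), the latter named after its values were seen.

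**Figure D4:**
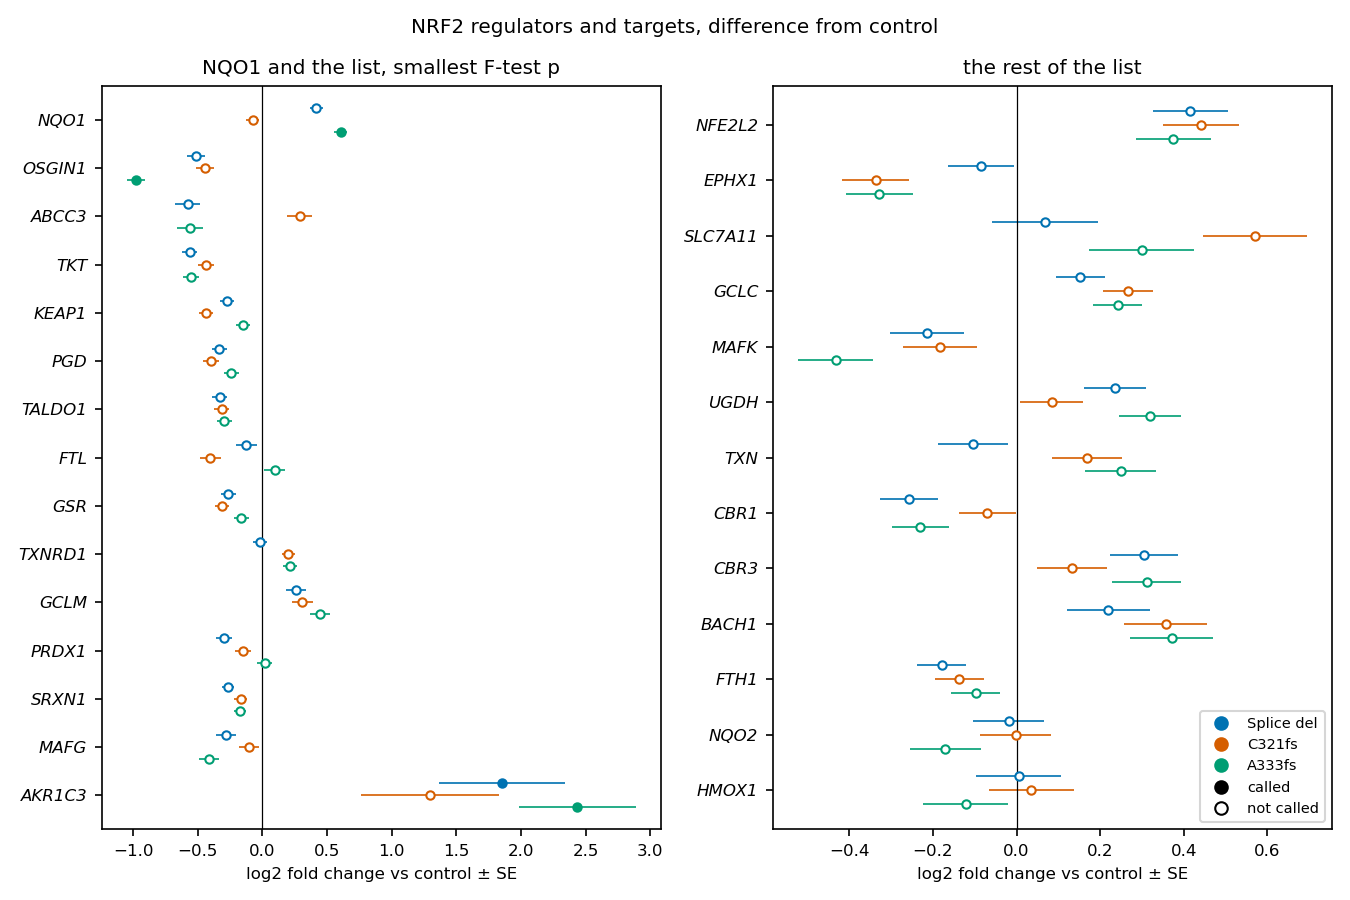
Log2 fold change against control with bars of 1 SE for NQO1 and the tested genes of the NRF2 list that are reported here, ordered by the F-test among the 4 lines, with colours for the mutant lines and filled points for called genes. NQO1 lies at 0.42 and 0.61 in Splice del and A333fs, where OSGIN1 lies at -0.51 and -0.98.

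Of 14 genes for the chaperones, partners and coregulators of AHR, 13 were tested, with 1 called higher in each line (against 4.63% to 6.21% of all tested genes), 1 lower in Splice del and 1 lower in A333fs (against 4.53% and 6.81%). In C321fs 0 were called lower with edgeR's quasi-likelihood test, where 3 were lower at an unadjusted p below 0.05 and DESeq2 called 0 lower. NRIP1, a coregulator of nuclear receptors, rose from 89.3 CPM to 169 CPM in Splice del and 162 CPM in C321fs, and stood at 129 CPM in A333fs. CUL4B, the scaffold of the ubiquitin ligase that AHR joins, rose from 51.8 to 77.9 CPM in A333fs. Neither NRIP1 nor CUL4B stayed called after the GC and length correction, where their log2 fold changes in the lines called were 0.57 and 0.56 for NRIP1 and 0.25 for CUL4B.

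Of 20 further genes known as AHR targets, 9 were tested. Calls of higher numbered 1 (Splice del), 1 (C321fs) and 2 (A333fs), against 6.21%, 4.63% and 5.46% of all tested genes. In each line 1 was called lower, against 4.53%, 2.26% and 6.81%. The growth factor gene EREG was called higher in all 3 lines, on 3 to 7 fragments in the control libraries, 18 to 27 in Splice del, 29 to 33 in C321fs and 30 to 52 in A333fs. EREG passed the filter on low counts only through mutant lines, which favours a call of higher, so its calls add little. It stayed called after the GC and length correction, which kept the same filter. SLC7A5, which encodes a transporter of large neutral amino acids such as tryptophan, was called lower in all 3 lines, from 561 CPM in control to 285, 359 and 295 CPM, with log2 fold changes of -0.98, -0.64 and -0.93. With that trend removed they were -0.83, -0.46 and -0.57, of which Splice del alone stayed called. NEDD9, a scaffold protein gene of cell adhesion, was called higher in A333fs at 2.64 CPM, against 1.47 CPM in control. The medians of the 9 genes were 0.10, 0.18 and 0.01, against 0.03, 0.02 and 0.01 over all tested genes. With the trend removed they were -0.03, 0.01 and -0.10, against -0.06, -0.05 and -0.05.

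The kynurenine pathway turns tryptophan into AHR ligands, and 7 of its 13 genes were tested. KMO was called higher in Splice del (6.65 against 4.38 CPM), and KYNU (78.9 against 49.0 CPM) and KYAT3, counted under its older symbol CCBL2 (37.5 against 24.0 CPM), in A333fs. That is 1 (Splice del), 0 (C321fs) and 2 (A333fs) of 7 called higher, against 6.21%, 4.63% and 5.46% of all tested genes. In C321fs 0 were called with edgeR's quasi-likelihood test, where 2 were higher and 3 lower at an unadjusted p below 0.05 and DESeq2 called 0. DESeq2 also called 0 in Splice del. None of the 3 genes stayed called after the GC and length correction. EPAS1, a hypoxia-inducible factor that also pairs with ARNT and the one gene called among 7 tested of 12 other bHLH-PAS genes, went in opposite directions: it stood at 66.9, 67.7 and 67.8 CPM in control, at 36.2, 40.8 and 40.3 CPM in C321fs and at 112, 116 and 124 CPM in A333fs. Its log2 fold changes were -0.79 (standard error 0.06, adjusted p = 4.4e-07 by the edgeR quasi-likelihood test, Benjamini-Hochberg) in C321fs and 0.80 (0.06, adjusted p = 7.5e-08) in A333fs, and -0.70 and 0.87 after the GC and length correction. For the 7 bHLH-PAS genes tested, this is 1 called lower in C321fs and 1 higher in A333fs, against 2.26% and 5.46% of all tested genes.

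Between the mutant lines, NQO1 was the one member called, and CYP2S1, chosen for low values in each of these lines, is described without a test. Between Splice del and C321fs 0 of the 6 other members were called with edgeR's quasi-likelihood test, where 2 had an unadjusted p below 0.05 and DESeq2 called 0, against 2.64% of all genes. Between A333fs and C321fs 1 of 6 was called, against 5.55%. Between A333fs and Splice del 0 of 6 were called with edgeR's quasi-likelihood test, where 3 had an unadjusted p below 0.05 and DESeq2 called 0, against 3.0%. With no minimum fold change 1, 2 and 1 of the 6 passed an adjusted p of 0.01, against 6.32%, 15.7% and 11.9% of all genes.

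NQO1 was higher in A333fs than in C321fs by a log2 fold change of 0.68 (95% interval 0.57 to 0.79, adjusted p = 9.2e-08 by the edgeR quasi-likelihood test, Benjamini-Hochberg), and this was called under each of 9 other fits, with 0.61 to 0.71, but not in the test against 1.5-fold. It was higher in Splice del than in C321fs by 0.49 (adjusted p = 6.7e-06) and in A333fs than in Splice del by 0.19 (adjusted p = 0.0144). AHR was higher in A333fs than in C321fs by 0.46 (95% interval 0.32 to 0.61, adjusted p = 1.1e-04) and than in Splice del by 0.36 (0.21 to 0.50, adjusted p = 0.00150), under 1.5-fold in both, and these held at 0.39 and 0.34 after the GC and length correction. AHRR was higher in A333fs than in C321fs by 0.68 (adjusted p = 0.0109), short of the threshold, and was called with that trend removed (0.79, adjusted p = 0.00244) and without A333fs replicate 2. CYP1A1 was higher in A333fs than in Splice del by 1.12, with an interval from 0.36 to 1.87 (adjusted p = 0.0325).

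As a description, the log2 fold change of CYP2S1 was -0.17 between Splice del and C321fs (95% interval -0.35 to 0.02) and 0.11 between A333fs and C321fs (-0.08 to 0.29), with overlap of the libraries in both. Between A333fs and Splice del it was 0.27 (0.09 to 0.46), without overlap. The GC and length correction gave -0.16, 0.28 and 0.44. TIPARP and CYP1B1 passed an adjusted p of 0.01 (edgeR) in no pair, and their 95% intervals lay between -0.12 and 0.28 in all 3 pairs.

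**Figure D5:**
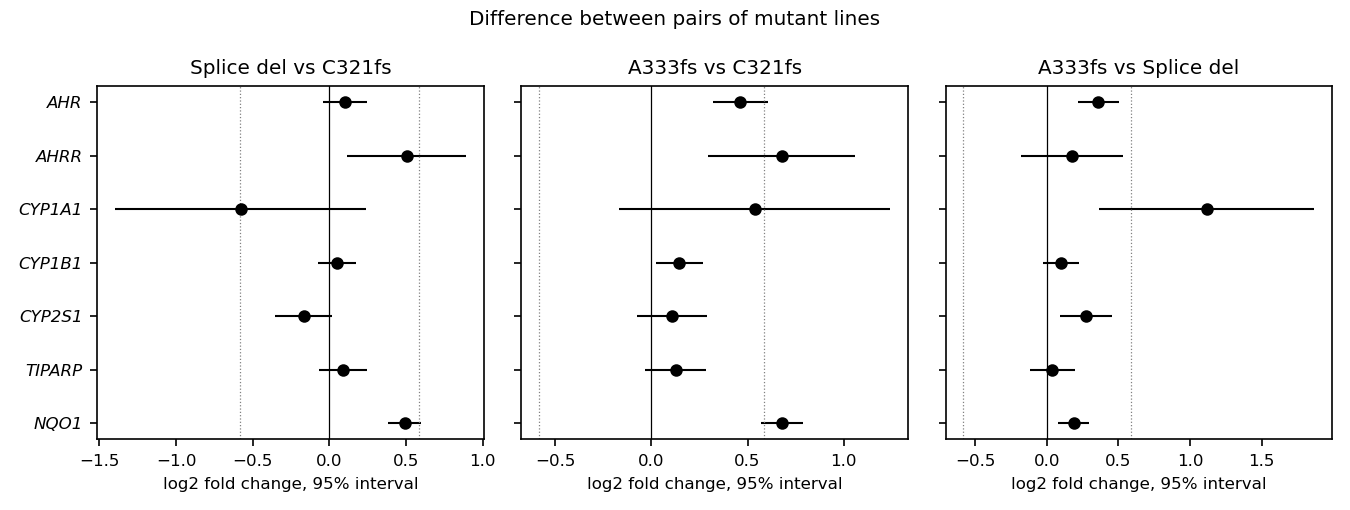
Log2 fold change of the 7 genes between pairs of mutant lines with 95% intervals, in the order first line against second line, and dotted lines at 1.5-fold. NQO1 between A333fs and C321fs, at 0.68, is the one called difference, and the AHR points of both A333fs comparisons lie at 0.46 and 0.36.

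Over the 12 libraries, the genes whose log2 CPM followed each member most closely were taken by Pearson's r, as a description, since the libraries share their lines and the trend over GC content. For CYP2S1 they were POLDIP2 (0.985), U2AF2 (0.984) and LONP1 (0.983). For NQO1 they were PTGS1 (0.989), SOX4 (0.987) and NTN4 (0.983), and for AHR they were SLC40A1 (0.940), ANXA3 (0.938) and KRT23 (0.937). CYP1B1 was followed by FNBP1L (0.989), VPS4B (0.981) and ITGB1 (0.978), and TIPARP by TRIM24, MAP7 and ZNF782 (each 0.880). The low-count members AHRR (TCF7L2 at 0.924, RAB3IL1 at 0.914 and CLSTN3 at 0.910) and CYP1A1 (DLAT at 0.866, KANK1 at 0.862 and METTL16 at 0.856) had the weakest leading correlations along with TIPARP. Among the members themselves, r ran from -0.74 for CYP1B1 with CYP2S1 to 0.69 for CYP1B1 with TIPARP, and it was 0.16 for AHR with CYP2S1.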

How the data were processed

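RNA-seq counts of 12 libraries of T47D cells were used, 3 each for control, Splice del, C321fs and A333fs, grouped by their labels. The ChIP-seq samples were not analysed here. The authors trimmed the paired reads, aligned them to hg38 and deposited whole-number fragment counts per gene from featureCounts 1.6.4, not normalized and without strand (the header shows paired counting and no strand setting). The submitters' processing notes name HISAT2 as an aligner and the header a folder named for STAR, so the aligner is not settled. Every sample column was mapped, replicates were not pooled, and no repeated deposit was found: the chi-square per gene between replicates, near 1 for a repeat, was 2.12 or more. CPM per kilobase used the exon length that the authors deposited with the counts.

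The 7 genes, the pathway lists, written from general knowledge, and the tests were chosen with earlier results of these data known. edgeR 4.0.16 in R 4.3.3 kept genes with filterByExpr, scaled with TMM and fitted 1 coefficient per line without covariates (glmQLFit, glmQLFTest). CYP4F22, CYP4B1, EREG, AKR1C3, KRT14 and TP63, near the floor in control, passed this filter only through mutant lines, which favours calls of higher. Genes were called at a false discovery rate below 0.01 with a change of more than 1.5-fold, with an F-test for any difference among lines. Log2 CPM used a prior count of 2. The GC and length correction removed a loess trend (span 0.3) of each library, fitted outside the lists, as offsets. Of each list at most 4 genes called in a mutant line were named, those with the smallest F-test p, besides the 3 genes closest in pattern to each member and the tested genes within 250 kb of CYP2S1. Named genes outside this rule are marked as chosen after their values were seen. Some genes that the rule names are not reported here, although the counts of their lists include them. The alternatives were RLE, upper-quartile and no scaling factors, no filter, at least 10 counts in every library, fits to the 2 lines compared, DESeq2 1.42.0, a false discovery rate of 0.05, calls without the fold limit, glmTreat at 1.5-fold, a replicate block, the GC and length correction and leaving out each library. The fit was tested on simulated data before use.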

Additional observations from a re-analysis of the deposited data

Results flagged for a closer look

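The effect against control differed between mutant lines for NQO1 and AHR, by the test of the difference in the same fit, where the shared control cancels (edgeR quasi-likelihood test, Benjamini-Hochberg). For NQO1, Splice del exceeded C321fs by 0.49 on the log2 scale (adjusted p = 6.7e-06) and A333fs exceeded it by 0.68 (adjusted p = 9.2e-08), with every library of the higher line above every library of C321fs. For AHR the difference between A333fs and C321fs was 0.46 (adjusted p = 1.1e-04) and that between A333fs and Splice del 0.36 (adjusted p = 0.00150), again without overlap of the libraries. Without C321fs replicate 1, which stood apart from its replicates, these differences from C321fs were 0.50 and 0.69 for NQO1 and 0.44 for AHR.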

How the results depend on the processing

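Under the alternatives, 779 of the members' log2 fold changes (CYP2S1 against control left out) kept their direction and their side of the threshold, 6 passed it and 8 fell short of it where the reported value did not, and 19 changed sign. Upper-quartile factors turned TIPARP and NQO1 in C321fs to 0.064 and 0.011, and library totals alone turned them to 0.14 and 0.092, AHR and AHRR in Splice del to 0.071 and 0.017, and TIPARP between A333fs and Splice del to -0.0035. The GC and length correction turned CYP1B1 and TIPARP in Splice del to -0.0029 and -0.16, AHR and TIPARP in A333fs to -0.087 and -0.15, and CYP1B1 between Splice del and C321fs to -0.015. Leaving out 1 library, CYP1A1 in A333fs ran from -0.0059 to 0.32, AHRR in A333fs from -0.17 to 0.10, TIPARP in C321fs from -0.090 to 0.037 and CYP1B1 between Splice del and C321fs from -0.00088 to 0.092. The replicate block turned AHRR in A333fs to -0.0054 and changed no call of a member. Pairing by these numbers was not seen: the residual correlation of 18 same-numbered pairs ran from -0.12 to 0.17 (mean -0.0092), and 4 of 12 libraries correlated best with one of their own number.

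Of the members tested against control, the count called in Splice del (0) became 1 with library totals alone, 1 at an adjusted p of 0.05 and 2 without the fold limit. In C321fs the count (1) became 0 with upper-quartile factors, library totals alone, the test against 1.5-fold and the GC and length correction, and ran from 0 to 1 on leaving out 1 library (0 without control replicate 1, control replicate 2 or C321fs replicate 2). In A333fs the count (1) became 3 without the fold limit and 0 with the test against 1.5-fold or the GC and length correction, and ran from 0 to 1 on leaving out 1 library (0 without control replicate 3). Between A333fs and C321fs the count (1) became 2 with RLE or upper-quartile factors, no filter, an adjusted p of 0.05, no fold limit or the GC and length correction, became 0 with the test against 1.5-fold, and ran from 1 to 2 on leaving out 1 library (2 without A333fs replicate 2). In both other pairs the count (0) became 1 without the fold limit, and for A333fs against Splice del also at an adjusted p of 0.05, where 5 of 6 members in place of 3 differed among the 4 lines. Of 97 tested genes of the pathway lists, 16, 9 and 19 were called against control (Splice del, C321fs, A333fs; 10.7%, 6.88% and 12.3% of all genes), 53, 42 and 57 without the fold limit (41.1%, 36.8% and 47.4% of all), 4, 2 and 8 with the test against 1.5-fold, and in Splice del 10 to 19 on leaving out 1 library (10 without control replicate 2). The CYP2S1 mean of control was 27.2 CPM with library totals alone and 26.4 CPM after the GC and length correction, which gave 17.7 CPM for A333fs. Of all called genes, 57.8%, 67.2% and 44.5% were higher than control with TMM, 79.1%, 86.3% and 73.7% with upper-quartile factors, 92.2%, 93.2% and 80.2% with library totals alone, and 66.7%, 71.3% and 71.1% after the GC and length correction. The cause of these shifts was not tested. A minimum of 10 counts in every library gave no value for CYP1A1, whose counts limit what can be seen of it.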
